A study of Mus musculus with 6 samples.

Results

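The genes described here are 8 chemokine ligands, the CXC ligands Cxcl1, Cxcl9, Cxcl10, Cxcl12, Cxcl13, Cxcl14 and Cxcl16 and the only CX3C ligand, Cx3cl1. They were matched by symbol to the Ensembl identifiers of the count tables, and each matched 1 of the 54752 genes. RNA-seq was performed on the whole right hippocampus of male wild type C57BL/6 mice (C57BL/6 J in the study's methods), aged 14 weeks by the labels, 3 with a sham operation and 3 with bilateral carotid artery stenosis (BCAS), with 1 library per mouse taken 3 weeks after surgery. In BCAS mice both common carotid arteries were narrowed by microcoils, with the narrower coil on the right side, from which the hippocampus was taken. Sham mice underwent the same operation without coils. The comparison asks which ligands changed in the hippocampus under chronic cerebral hypoperfusion. The libraries held 29652456 to 35607098 counted reads, and levels are given as CPM, the reads of a gene scaled to the TMM-normalized size of its library. The summed level of 5 choroid plexus markers, a tissue that borders the hippocampus, varied widely within both groups (69.8 to 4078 CPM among sham mice, 40.3 to 5918 CPM among BCAS mice), and its part in the ligand values was not tested.

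Chemokines are small secreted or membrane-bound proteins that attract leukocytes and position cells through G protein-coupled receptors. The CXC and CX3C classes are named for the spacing of their first cysteines. Several CXC ligands are made only when inflammatory signals such as interferons or NF-kB activation reach a cell, while others are expressed in the healthy brain, where Cx3cl1 from neurons signals to Cx3cr1 on microglia and Cxcl12 guides migrating neurons. Cxcl1, Cxcl9, Cxcl10, Cxcl13 and Cxcl16 are treated below as induced inflammatory ligands, and Cxcl12, Cxcl14 and Cx3cl1 as neuronal or homeostatic ligands.

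The bases upstream of 4 ligands are shown because they differ in the motifs commonly read by interferon and NF-kB factors. RefSeq windows of 250 bases before the RefSeq start of the gene (GRCm38.p6, the assembly behind mm10) were available for 7 of the 8 ligands, and Cxcl16 had no entry. For Cxcl1, Cxcl13 and Cx3cl1 the RefSeq start differs from the start in the count tables. The Cx3cl1 window reaches base 94772179, past the start at 94772009 in the count tables, so much of it lies within that gene. Each is printed 5′ to 3′ on the strand of the gene, with motif matches in capitals.
Cxcl1 (chr5:90890995-90891244, plus strand): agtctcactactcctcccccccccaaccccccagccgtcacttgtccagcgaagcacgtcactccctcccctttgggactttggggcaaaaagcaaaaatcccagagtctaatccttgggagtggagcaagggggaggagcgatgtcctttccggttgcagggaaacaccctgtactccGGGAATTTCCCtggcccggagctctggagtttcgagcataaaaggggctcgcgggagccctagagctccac
Cxcl9 (chr5:92328080-92328329, minus strand): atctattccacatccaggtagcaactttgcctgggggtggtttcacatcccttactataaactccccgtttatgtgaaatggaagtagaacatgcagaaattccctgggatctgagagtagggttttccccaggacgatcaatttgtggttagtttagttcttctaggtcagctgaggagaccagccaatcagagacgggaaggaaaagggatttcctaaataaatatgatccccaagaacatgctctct
Cxcl10 (chr5:92348890-92349139, minus strand): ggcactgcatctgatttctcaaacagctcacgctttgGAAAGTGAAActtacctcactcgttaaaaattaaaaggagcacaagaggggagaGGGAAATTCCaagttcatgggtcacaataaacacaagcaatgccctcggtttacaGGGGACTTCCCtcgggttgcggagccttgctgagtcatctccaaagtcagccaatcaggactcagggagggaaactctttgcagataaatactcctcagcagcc
Cxcl12 (chr6:117168285-117168534, plus strand): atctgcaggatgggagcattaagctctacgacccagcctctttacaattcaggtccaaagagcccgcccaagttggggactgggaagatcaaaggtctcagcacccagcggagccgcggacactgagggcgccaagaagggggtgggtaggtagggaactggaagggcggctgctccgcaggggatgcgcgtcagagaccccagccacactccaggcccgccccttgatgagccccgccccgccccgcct
The motifs searched on both strands were the core of the interferon-stimulated response element (GAAANNGAAA), the gamma-activated site (TTCNNNGAA) and the NF-kB consensus. In Cxcl10 the capitals mark 1 interferon-stimulated core at bases 213 to 204 before the start, an NF-kB consensus at bases 159 to 150 and overlapping NF-kB matches within bases 104 to 94. In Cxcl1 they mark NF-kB matches on both strands within bases 71 to 61. The windows of Cxcl9 and Cxcl12 held none of the letters searched, and neither did those of Cxcl13 and Cx3cl1. The Cxcl14 window held 1 interferon-stimulated core and 1 gamma-activated site. Among all 32851 RefSeq windows of this length, 2.98% held the interferon-stimulated core, 7.02% the gamma-activated site and 7.25% the NF-kB consensus. These matches describe the letters of the windows, and the counts of RNA do not test them.

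Of the 8 ligands, 7 had enough reads to be tested and Cxcl1 did not. The induced ligands Cxcl9, Cxcl10, Cxcl13 and Cxcl16 rose in BCAS mice and were up-regulated DEGs, which needed an adjusted P under 0.05 in edgeR's quasi-likelihood test and an absolute log2 fold change above 1. Such genes made up 8.47% of the 18617 tested genes. Cx3cl1 fell, with an adjusted P under 0.05 but a change smaller than the DEG threshold, as did 13.2% of tested genes under that P alone (18.0% rose). Cxcl12 and Cxcl14 did not pass the test. In 5 of the 7 tested ligands every BCAS mouse lay above every sham mouse, as was the case for 25.3% of tested genes, and in 1 (Cx3cl1) every BCAS mouse lay below, as for 22.7%. Of the 4 tested induced ligands only Cxcl16 had enough reads in sham mice alone to pass the filter on low counts, while Cxcl9, Cxcl10 and Cxcl13 passed it through the BCAS mice, so their count and any median over them are shaped by that filter. The 3 homeostatic ligands passed it in sham mice alone, with a median log2 fold change of 0.14 against 0.018 over all tested genes, given as a description since the ligands were chosen with results of these data known.

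**Figure D1:**
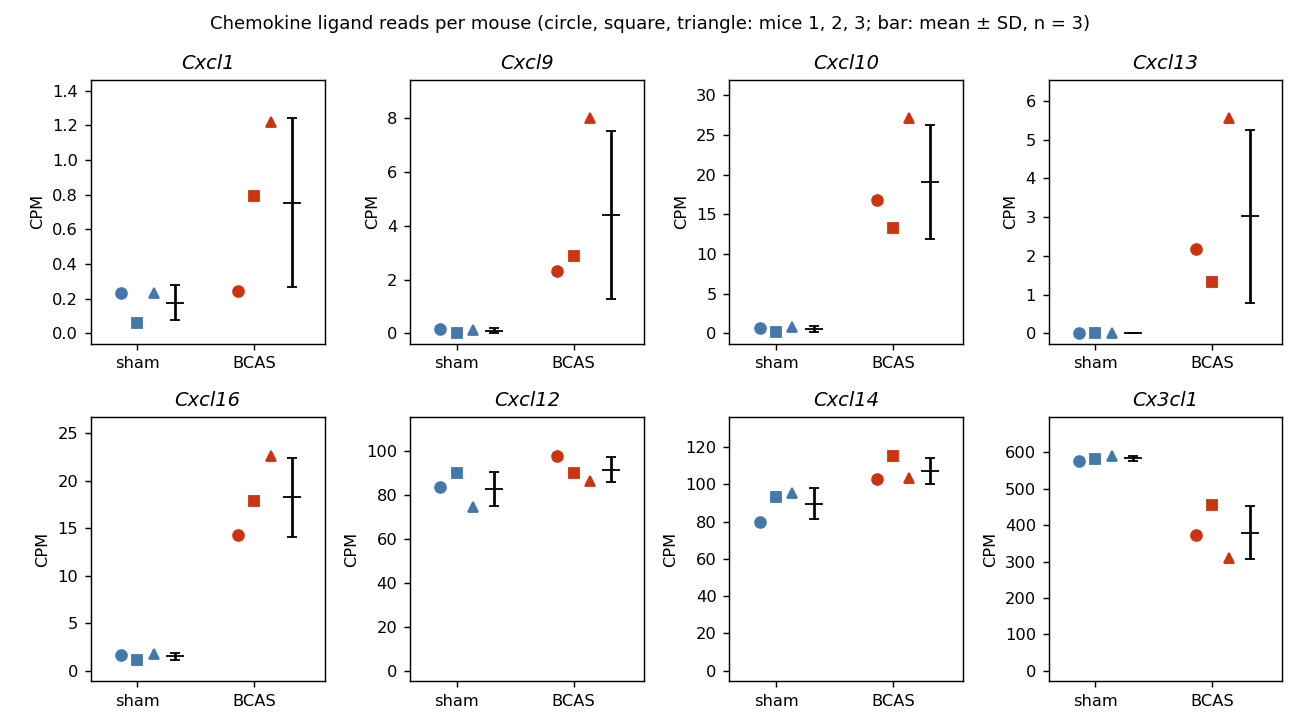
CPM of the 8 ligands in each mouse, with circles, squares and triangles for mice 1, 2 and 3 of each group and bars for the mean and SD (n = 3). For Cxcl9, Cxcl10, Cxcl13, Cxcl16 and Cxcl14 every BCAS mouse lies above every sham mouse, for Cxcl1 narrowly so (0.246 against 0.236 CPM), for Cx3cl1 every BCAS mouse lies below, and Cxcl12 overlaps.

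Cxcl10 (ENSMUSG00000034855.13; mm10 chromosome 5, 92346638 to 92348889, minus strand) encodes an interferon-inducible ligand of Cxcr3, the receptor of activated T cells. It was counted at 0.620, 0.120 and 0.816 CPM in sham mice 1 to 3 and at 16.7, 13.3 and 27.1 CPM in BCAS mice 1 to 3. The groups were far apart, and the highest BCAS value was that of mouse 3. The log2 fold change was 5.18 ± 0.48 (SE), and edgeR's adjusted P was 1.07e-04. Of its 2252 exonic bases, 133 overlap exons of Art3 on the opposite strand, where reads were assigned to neither gene because strand was ignored.

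Cxcl9 (ENSMUSG00000029417.9; chromosome 5, 92321347 to 92328079, minus strand), the other Cxcr3 ligand among the 8, lies 18559 bases from Cxcl10. It had 6, 0 and 4 reads in sham mice and 75, 87 and 249 reads in BCAS mice, or 2.31, 2.88 and 7.98 CPM. A count of 0 allows up to 3 fragments, or 6 reads where both mates of a pair were counted, which equals 0.175 to 0.180 CPM in the sham libraries, and no sham mouse was above it. The log2 fold change of 5.43 ± 0.76 (SE), with an edgeR adjusted P of 0.00102, rests on these few sham reads. It was 4.67 without BCAS mouse 3 and 6.12 without sham mouse 1, and passed the test in both cases. Per base of exon, Cxcl9 reached 0.103, 0.162 and 0.220 of the level of Cxcl10 in BCAS mice 1 to 3.

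Cxcl13 (ENSMUSG00000023078.6; chromosome 5, 95956951 to 95961068, plus strand) attracts B cells through Cxcr5. Sham mice had 0 reads in every library, and BCAS mice had 71, 40 and 173 reads, or 2.19, 1.33 and 5.55 CPM. Against the limit of 6 reads per sham library, Cxcl13 was at least 17.0-fold higher in BCAS mice (edgeR adjusted P = 0.0015), and at least 9.91-fold higher without BCAS mouse 3. This limit was set after seeing the data and covers counting error only. Its receptor gene Cxcr5 had 0 reads in sham mice and 0, 10 and 7 reads in BCAS mice, and was not tested.

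Cxcl16 (ENSMUSG00000018920.11; chromosome 11, 70453983 to 70459984, minus strand) encodes a transmembrane ligand of Cxcr6 that can be shed from the cell surface. It was counted at 1.71, 1.11 and 1.72 CPM in sham mice and at 14.3, 17.8 and 22.6 CPM in BCAS mice. Its log2 fold change of 3.59 ± 0.24 (SE) had the smallest standard error among the 4 induced ligands tested, and edgeR's adjusted P was 2.26e-05. Exons of Zmynd15 on the opposite strand cover 552 of its 3021 exonic bases, so reads there entered neither gene. Zmynd15 itself rose from a mean of 0.363 CPM to 2.91 CPM, a log2 difference of 2.99 ± 0.39 (SE; edgeR adjusted P = 7.17e-04). With 10, 7 and 20 reads in sham mice, Zmynd15 passed the filter on low counts through the BCAS mice only.

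Cxcl1 (ENSMUSG00000029380.11; chromosome 5, 90891241 to 90893115, plus strand), a neutrophil attractant that acts through Cxcr2, was the rarest induced ligand in BCAS mice. It had 8, 2 and 8 reads in sham mice and 8, 24 and 38 reads in BCAS mice. BCAS mouse 1 had 0.246 CPM, barely above the 0.236 CPM of sham mouse 1, while BCAS mice 2 and 3 had 0.796 and 1.22 CPM. The mean CPM was 4.27-fold higher in BCAS mice, or 2.95-fold without BCAS mouse 3, and an exact two-sided permutation test gave P = 0.1, the smallest value that 3 mice against 3 allow. Cxcl1 was dropped by the filter on low counts. In the 7 alternative fits that retained it, the log2 fold change ran from 1.66 to 2.48, and 4 of them passed an adjusted P of 0.05, with a range of 0.0186 to 0.141. It did not pass without sham mouse 1 (adjusted P = 0.102), sham mouse 2 (0.141) or sham mouse 3 (0.105). A count of 2 can stand for a single fragment here, since both mates of a pair were counted.

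In each of the 5 induced ligands the highest BCAS value was that of mouse 3. Among the genes described below, the same held for Irf7, Irf8 and Rac2, but not for Cxcl5 or Mmp12. The share of all tested genes that were highest in this mouse was not computed, so this is not given as a trait of the ligands. The same mouse had the highest summed level of 5 microglial markers (Tmem119, P2ry12, Csf1r, Aif1 and Itgam), at 1083 CPM against 656 and 719 CPM in BCAS mice 1 and 2 and 162 to 166 CPM in sham mice. For the marker counts here and below, 18.0% of all tested genes rose and 13.2% fell. All 5 microglial markers rose, and their summed level was 4.99-fold higher in BCAS mice, compared with 12.1-fold for Cxcl16 and 36.7-fold for Cxcl10. Csf1r held much of that sum, with a mean of 516 of the 819 CPM in the BCAS group. Single markers rose by 2.91-fold (P2ry12) to 8.84-fold (Aif1) in mean CPM, so ratios to the sum depend on this weighting. Relative to this sum within each library, Cxcl16 averaged 0.921% ± 0.205 in the sham group and 2.25% ± 0.203 in the BCAS group (SD, n = 3 each). Cxcl10 averaged 0.315% ± 0.217 of the sum in the sham group and 2.30% ± 0.392 in the BCAS group. In both ratios, which were chosen after seeing the data, every BCAS mouse lay above every sham mouse (exact permutation P = 0.1, the smallest possible). In RNA from whole tissue, more cells of a type and more RNA per cell cannot be told apart.

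All 5 astrocyte markers rose too, with a sum of 2974 to 3326 CPM across the sham group against 7457 to 8092 CPM across the BCAS group, highest in BCAS mouse 1. Among them Gfap, a gene of reactive astrocytes, rose 9.80-fold. Markers of other leukocytes moved as well. All 6 T cell markers rose (5 of them passed the filter on low counts through the BCAS mice only), and their sum was 0.826 to 1.75 CPM across the sham group against 8.19 to 8.37 CPM across the BCAS group. Of 5 B and plasma cell markers, 3 were tested and 2 rose (Cd79b and Jchain), with a sum of 1.25 to 1.44 CPM across the sham group against 4.94 to 6.03 CPM across the BCAS group. Cd79b passed the filter on low counts through the BCAS mice only. Of 5 neutrophil markers only S100a9 was tested, and it did not pass (log2 fold change 1.25, edgeR adjusted P = 0.202). Ly6g, a defining neutrophil gene, had 0 reads in all 6 libraries. The part of these cells, astrocytes included, in the ligand values was not tested.

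Cx3cl1 (ENSMUSG00000031778.13; chromosome 8, 94772009 to 94782427, plus strand), also called fractalkine, is tethered to the surface of neurons and can be cut into a soluble form. It was the most abundant of the 8 ligands, per length of exon as well, with 576, 583 and 591 CPM in sham mice and 374, 455 and 310 CPM in BCAS mice. Sham mice were close to each other and BCAS mice were spread widely, with mouse 3 lowest. The BCAS mean was 65.1% of the sham mean, or -0.62 ± 0.13 (SE) as a log2 fold change, with a 95% interval of -0.92 to -0.32 and an edgeR adjusted P of 0.0085. When single mice were left out the change stayed between -0.78 and -0.50 and passed the test.

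Several neuronal markers fell beside Cx3cl1. The summed level of Rbfox3, Snap25, Syt1, Tubb3 and Map2 ran from 5235 to 5627 CPM in the sham group and from 3034 to 4350 CPM in the BCAS group, where the mean was 0.678 times the sham mean and mouse 3 was lowest. Of these 5 markers, 3 fell, while Map2 (log2 fold change -0.34, edgeR adjusted P = 0.0555) and Tubb3 (-0.39, edgeR adjusted P = 0.0847) did not pass. Relative to this sum, Cx3cl1 averaged 10.7% ± 0.257 in the sham group and 10.3% ± 0.152 in the BCAS group (SD, n = 3 each). This ratio, chosen after seeing the data, was lower in every BCAS mouse than in every sham mouse, by a factor of 0.959 (exact permutation P = 0.1, the smallest possible). Markers of CA1 pyramidal neurons, a cell layer that defines the hippocampus, summed to between 632 and 806 CPM in the sham group and between 338 and 498 CPM in the BCAS group, and 4 of 5 fell. Of 4 dentate granule neuron markers 2 fell (Dsp and Calb1), Prox1 (log2 fold change -0.14) and C1ql2 (-0.06) did not pass, and the sums overlapped, at 333 to 401 CPM in the sham group against 228 to 342 CPM in the BCAS group.

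Cxcl12 (ENSMUSG00000061353.11; chromosome 6, 117168535 to 117181367, plus strand), the ligand of Cxcr4 and of the scavenging receptor Ackr3, was counted at 83.7, 89.8 and 74.6 CPM in sham mice and at 97.7, 90.0 and 86.4 CPM in BCAS mice. The groups overlapped, and the log2 fold change of 0.14 ± 0.09 (SE) did not pass the test (edgeR adjusted P = 0.247). Its 95% interval of -0.05 to 0.34 bounds the change but does not show that the levels were equal. Markers of endothelial cells and of meningeal fibroblasts, cells known to make Cxcl12, rose for 3 of 5 and 4 of 5 genes, with sums of 181 to 206 and 81.0 to 169 CPM in the sham group against 256 to 273 and 178 to 330 CPM in the BCAS group, and their part in the level of Cxcl12 was not tested.

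Cxcl14 (ENSMUSG00000021508.11; chromosome 13, 56288643 to 56296551, minus strand) is a constitutively expressed ligand known from interneurons. It was counted at 80.0, 93.2 and 95.4 CPM in sham mice and at 103, 115 and 103 CPM in BCAS mice. Every BCAS mouse was above every sham mouse, but the log2 fold change of 0.26 ± 0.09 (SE, 95% interval 0.06 to 0.46) did not pass (edgeR adjusted P = 0.0529). It passed with library totals in place of TMM (adjusted P = 0.0147) and with counts halved (adjusted P = 0.0448), and the 14 alternatives ranged from 0.0147 to 0.177. Of 7 interneuron markers, 6 fell, among them Sst (log2 fold change -1.10) and Gad1 (-0.46).

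**Figure D2:**
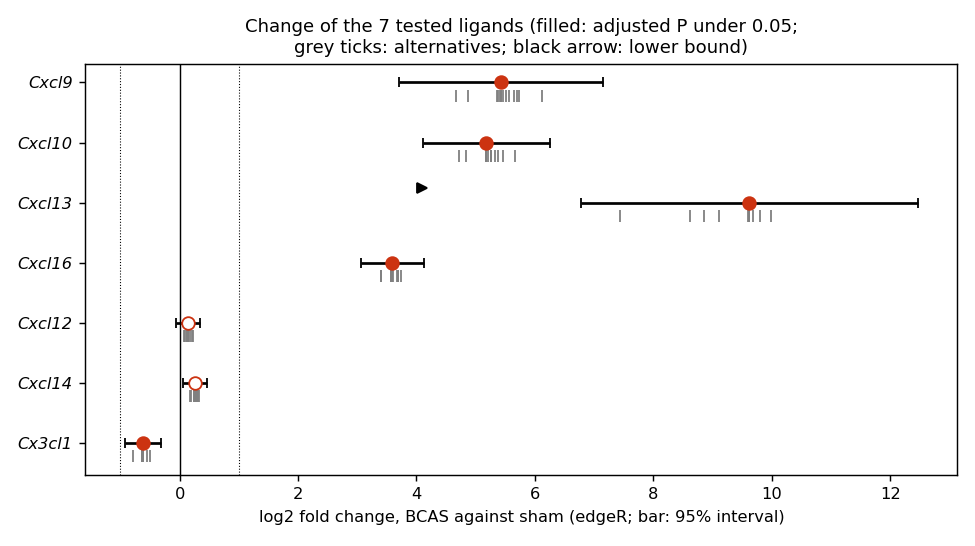
Log2 fold change of the 7 tested ligands, BCAS against sham, from edgeR with 95% intervals. Filled points passed an adjusted P of 0.05, grey ticks give the alternatives, dotted lines mark a log2 fold change of 1 in each direction, and the black arrow marks the lower bound for Cxcl13 (17.0-fold), whose fitted value depends on a prior count because sham mice had 0 reads. The induced ligands lie from 3.59 upward, and Cxcl12, Cxcl14 and Cx3cl1 lie between -0.62 and 0.26.

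The composition of the ligands shifted. To compare genes with each other, levels were divided by exon length (RPKM, which is CPM per kilobase of exon). In sham mice the order was Cx3cl1 (148 RPKM), Cxcl14 (49.0), Cxcl12 (10.1), Cxcl16 (0.501), Cxcl10 (0.230), Cxcl1 (0.0941), Cxcl9 (0.0325) and Cxcl13 (0 reads). The ranges over mice did not overlap from Cx3cl1 down to Cxcl10, whereas neighbours from Cxcl10 to Cxcl13 overlapped. In BCAS mice Cx3cl1 (96.6 RPKM) and Cxcl14 (58.7) still led, followed by Cxcl12 (11.2), Cxcl10 (8.45), Cxcl16 (6.05), Cxcl13 (2.63), Cxcl9 (1.46) and Cxcl1 (0.402). There the ranges of Cxcl12 and Cxcl10 overlapped, as did those of each next pair down to Cxcl9. The summed level of the 8 ligands averaged 208 ± 5.91 RPKM in the sham group and 185 ± 16.5 RPKM in the BCAS group (SD, n = 3 each), and the groups overlapped. Without scaling by length they did not, with 742 to 767 CPM in the sham group against 564 to 697 CPM in the BCAS group (exact permutation P = 0.1, the smallest possible).

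Cx3cl1 made up 71.2% ± 1.27 of this sum in the sham group and 51.8% ± 5.79 in the BCAS group (SD, n = 3 each). Cxcl14 held 23.5% ± 1.55 in the sham group and 31.7% ± 0.858 in the BCAS group. Shares of a sum are tied to each other, so the fall of Cx3cl1 by itself raises the shares of the other ligands. The mean CPM of Cxcl14 was 1.20-fold higher in BCAS mice and did not pass the test (edgeR adjusted P = 0.0529). The 5 induced ligands together made up 0.509%, 0.214% and 0.515% in sham mice and 8.39%, 7.02% and 15.9% in BCAS mice. The groups did not overlap in any of these shares, and for the single genes the exact permutation P was 0.1, the smallest possible. The homeostatic ligands thus still held 91.6%, 93.0% and 84.1% of the sum in BCAS mice.

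**Figure D3:**
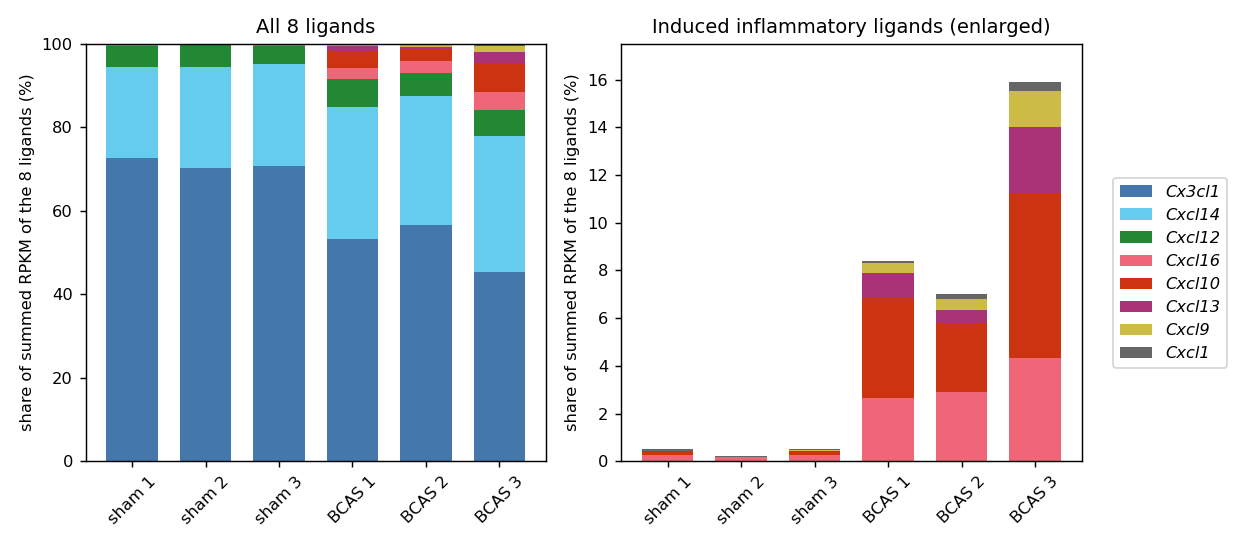
Share of each ligand in the summed RPKM of the 8 ligands, by mouse (left), and the 5 induced ligands on an enlarged axis (right). Cx3cl1 takes 70.4% to 72.7% in the sham group but 45.4% to 56.7% in the BCAS group, and BCAS mouse 3 has the largest induced share (15.9%).

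The other genes of the pathway were taken from lists fixed for this description. Of 8 further CXC ligands, 2 were tested and 1 rose (18.0% of all tested genes rose). This was Cxcl5, a neutrophil attractant like Cxcl1, with 1.33, 0.868 and 0.700 CPM in sham mice and 31.2, 24.4 and 18.4 CPM in BCAS mice (log2 fold change 4.67 ± 0.28 SE, edgeR adjusted P = 1.80e-05). Unlike the induced ligands above, Cxcl5 was lowest in BCAS mouse 3. Pf4, the platelet ligand, had a log2 fold change of 0.70 that did not pass (edgeR adjusted P = 0.17). Cxcl11, the remaining interferon-inducible Cxcr3 ligand, had 1, 0 and 4 reads in sham mice and 14, 1 and 3 reads in BCAS mice and was not tested, and Cxcl15 and Cxcl17 had 0 reads throughout.

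Of 9 receptors, 6 were tested and 4 rose (18.0% of all tested genes rose). Cx3cr1, the microglial receptor of Cx3cl1, was counted at 52.7, 48.1 and 48.0 CPM in sham mice and at 290, 276 and 419 CPM in BCAS mice (log2 fold change 2.73, edgeR adjusted P = 1.66e-05). Relative to the summed microglial markers, which rose 4.99-fold, Cx3cr1 averaged 30.2% ± 1.35 in the sham group and 40.4% ± 3.30 in the BCAS group (SD, n = 3 each), a 1.34-fold difference without overlap (exact permutation P = 0.1, the smallest possible). In mean CPM Cx3cr1 rose 6.62-fold, more than P2ry12 (2.91), Tmem119 (4.05) and Csf1r (5.97) but less than Itgam (8.07) and Aif1 (8.84). The RPKM of Cx3cl1 was 12.5, 13.9 and 14.1 times that of Cx3cr1 in sham mice and 1.48, 1.89 and 0.848 times in BCAS mice. Both ratios were chosen after seeing the data. The ligand to receptor ratio was thus lower in every BCAS mouse than in every sham mouse, and in BCAS mouse 3 the receptor exceeded the ligand. Cxcr4 had a log2 fold change of 1.74 (standard error 0.25), while its ligand Cxcl12 did not pass. Cxcr3 rose (3.58, standard error 0.51) from 4, 2 and 2 reads to 35, 36 and 21 reads, and Cxcr6 rose (4.84, standard error 0.79) from 0, 0 and 6 reads to 61, 47 and 61 reads. The scavenging receptors Ackr1 (-0.30, edgeR adjusted P = 0.294) and Ackr3 (-0.14, edgeR adjusted P = 0.364) did not pass. Cxcr2, the receptor of Cxcl1, had 0, 4 and 0 reads in sham mice and 2, 20 and 15 reads in BCAS mice and was not tested.

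Of 8 proteases and cofactors that shed or trim chemokines, all were tested and 7 rose (18.0% of all tested genes rose). Adam17, a sheddase of Cx3cl1, rose from 17.3 ± 1.21 to 45.9 ± 10.9 CPM (SD, n = 3 each; log2 fold change 1.41, edgeR adjusted P = 3.22e-04), and its partner Rhbdf2 from 2.67 ± 0.0502 to 7.94 ± 0.649 CPM (log2 fold change 1.57). Adam10, which sheds Cx3cl1 and Cxcl16, rose by a smaller log2 fold change, 0.37 ± 0.08 (SE; edgeR adjusted P = 0.00767). Mmp12 rose from 0, 2 and 2 reads in sham mice to 24, 256 and 93 reads in BCAS mice 1 to 3 (edgeR adjusted P = 0.00271), with mouse 2 highest. Mmp9 did not pass (0.11, edgeR adjusted P = 0.79).

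Of 13 genes of receptor signalling, 8 rose, against 18.0% of all tested genes. The largest rises were those of Rgs1 (4.52), Rac2 (3.48), Dock2 (3.39) and Pik3cg (2.73), which act in leukocytes and microglia, whereas Gnb1 (-0.26), Grk2 (-0.10), Arrb1 (-0.0021), Grk3 (0.028) and Elmo1 (0.19) did not pass. Of 15 regulators upstream of the induced ligands, 13 were tested and 13 rose, from Nfkbiz (0.54) to Tnf (4.71). Of all tested genes 18.0% rose. The count was 10 without sham mouse 2 and 10 without BCAS mouse 3, where Nfkbiz, Relb and Il1b did not pass. Irf7 (4.31), Irf8 (4.01), Irf1 (1.34) and the NF-kB subunit Rela (0.85) were among them. Ifng had 2, 2 and 0 reads and Ifnb1 had 0, 0 and 2 reads in BCAS mice, both had 0 reads in sham mice, and a difference in either was not detectable at this depth. As with the ligands, Cxcr3, Cxcr6, Mmp12, Rgs1, Tnf and Il1b passed the filter on low counts through the BCAS mice only, and all 6 are among the genes counted as risen.

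**Figure D4:**
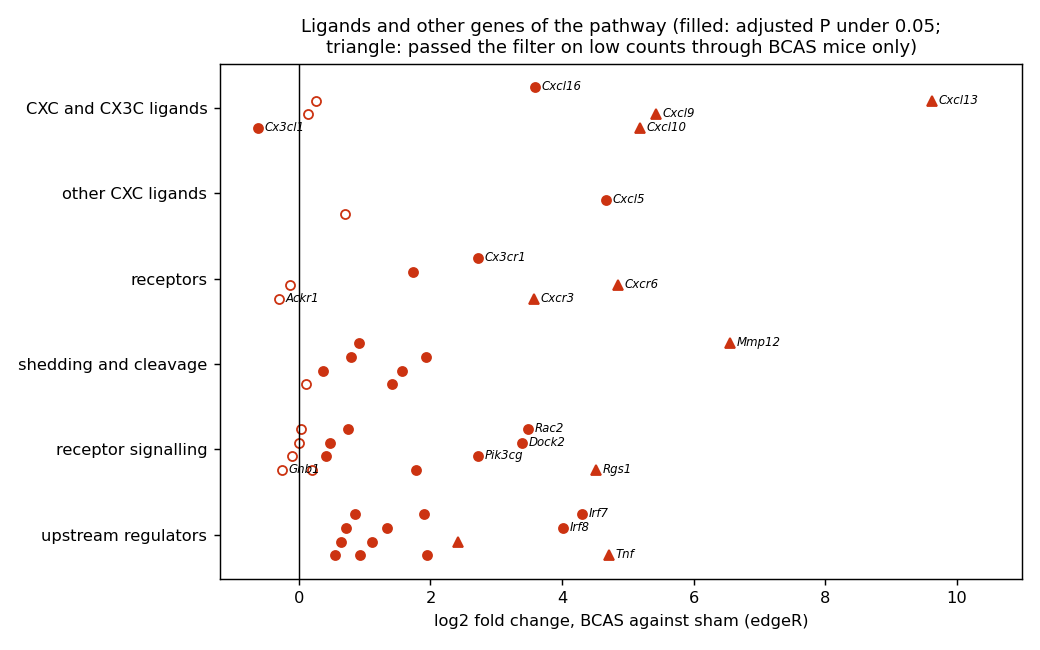
Log2 fold change (BCAS against sham, edgeR) of the tested genes in 6 lists, the ligands at the top. Filled points passed an adjusted P of 0.05, and triangles mark genes that passed the filter on low counts through the BCAS mice only. The value of Cxcl13 is a fitted one against 0 sham reads. Cx3cl1 (-0.62) is the only filled point below 0.

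Cxcl9 and Cxcl10 lie beside Cxcl11 and genes that encode no chemokine, which were compared with them over 100 kb on either side. Ppef2 (log2 fold change 0.93, edgeR adjusted P = 0.0847), Sdad1 (0.083) and Nup54 (0.12) did not pass the test. Art3 (0.82), whose gene body spans Cxcl10, Naaa (0.68) and Scarb2 (0.59) rose by far less than the 5.18 and 5.43 of Cxcl10 and Cxcl9. Within 100 kb of Cx3cl1, 9 genes were tested, of which the chemokine gene Ccl22 rose (2.49, standard error 0.59, edgeR adjusted P = 0.0128) and Dok4 fell (-0.43). Ccl22 had 2, 6 and 12 reads in sham mice and 29, 24 and 52 reads in BCAS mice. It passed the filter on low counts through the BCAS mice only. Within 100 kb of Cxcl16, 6 genes were tested and 3 rose, Zmynd15 (2.99), Pld2 (0.75) and Arrb2 (0.41). Near Cxcl13, 2 genes were tested and Gm5559 fell (-0.48). Over all tested genes 18.0% rose and 13.2% fell.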

How the data were processed

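The authors trimmed reads with Trim Galore, aligned them to mm10 (HISAT2) and assigned them to genes by featureCounts (1.6.3 in the submitters' processing notes, 2.0.3 with GENCODE annotation in the file headers). They deposited raw counts, with mates counted separately, strand ignored and multi-mapping reads left out. From these counts, genes were kept by filterByExpr, TMM-normalized and tested with edgeR 4.0.16 (quasi-likelihood, R 4.3.3), with Benjamini-Hochberg adjustment over 18617 genes. Standard errors are the log2 fold change divided by the root of F. Alternatives were DESeq2 1.42.0, limma-voom (limma 3.58.1), RLE, library totals, other filters (1 count in any library, or a mean of 10 counts), halved counts, a replicate block and leaving out each mouse. The steps were tested on simulated data. The ligands and lists were chosen with earlier results of these data known. Named genes are the ligands, the larger changes and the exceptions of each list, genes within 100 kb and the 3 nearest in pattern. Mice are numbered as in the labels, although the columns of the BCAS tables carry the numbers 2, 3 and 4. Genes not reported here were left out of the lists. P values weigh the difference between groups against the variation between mice.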

Additional observations from a re-analysis of the deposited data

How the results depend on the processing

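Each of the 7 tested ligands kept its direction under the 14 alternatives, and Cxcl9, Cxcl10, Cxcl13, Cxcl16 and Cx3cl1 passed an adjusted P of 0.05 in all of them (highest 0.00963, 0.00223, 0.00865, 7.52e-04 and 0.0352). Ligands that rose numbered 4 to 5 and ligands that fell 1, Cxcl1 or Cxcl14 being the added gene. With the replicate number as a block the counts were 4 and 1, and no call on a ligand changed. The numbers do not pair the mice, since residual correlations of same-numbered libraries were 0.036, -0.314 and -0.158. The count of receptors that fell ran from 0 to 1 with a mouse left out, Ackr1 passing without BCAS mouse 2. In receptor signalling it also ran from 0 to 1, and Gnb1 fell with DESeq2 as 1 gene. Over the alternatives the genes that rose numbered 4 to 6 among receptors, 6 to 7 among proteases and cofactors, 7 to 9 in receptor signalling and 10 to 13 among regulators, where the calls lost were those of Il1b, Relb and Nfkbiz. With CPM in place of RPKM, which drops the scaling by length, the share of Cxcl12 rose by 3.83 rather than 1.20 percentage points, and that of Cxcl14 by 5.44 percentage points rather than 8.20. Under scaling by library totals the median log2 fold change of all tested genes moved from 0.018 to 0.095. The log2 ratio of group means of Cxcl1 stayed above 0 in the 8 alternatives computed for it, which were library totals, halved counts and each mouse left out. Depth limits Cxcl1 and the sham levels of Cxcl9 and Cxcl13 most.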

Other observations

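The genes whose pattern over the 6 libraries was most like that of each ligand were sought among 15631 tested genes with a mean of at least 1 CPM. Likeness was the root mean square difference of log2 CPM after centring each gene on its sham mean, so a smaller value is more alike. Cx3cl1 was closest to Mapk10 (0.031), Scn2b (0.035) and Elavl2 (0.035), which are known from neurons and had log2 fold changes of -0.65, -0.64 and -0.66. Cxcl16 was closest to Fcer1g (0.112), Fcrls (0.130) and Rac2 (0.175), known from microglia and other myeloid cells, with log2 fold changes of 3.66, 3.54 and 3.48.

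Cxcl10 was closest to Oas1g (0.398), an antiviral interferon-regulated gene, then to Cd72 (0.464) and to Cxcl9 (0.518). The genes near Cxcl9 included Ifi211 (0.400) and Cxcl10, and Cxcl13 was closest to Ifi27l2a (0.420), Lilrb4a (0.473) and Ifi207 (0.490). With 0 sham reads, the centred log2 CPM of Cxcl13 is set by the prior count of 2 added to each library. Its nearest genes therefore depend on that choice, as do in part those of Cxcl9, which had few sham reads. The nearest genes of Cxcl14 were Rps6ka4 (0.031) and the ribosomal protein genes Rps27 (0.036) and Rpl35a (0.047). Those of Cxcl12 were Gramd4 (0.033), Fam193a (0.034) and Atg2b (0.037). With 6 libraries in 2 groups, this likeness mostly reflects the difference between the groups.

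Relative to the summed level of 7 interneuron markers, Cxcl14 averaged 7.68% ± 0.617 in the sham group and 13.9% ± 1.15 in the BCAS group (SD, n = 3 each), without overlap (exact permutation P = 0.1, the smallest possible). Relative to 5 endothelial markers, Cxcl12 averaged 43.7% ± 6.56 in the sham group and 34.4% ± 2.44 in the BCAS group (SD, n = 3 each), with overlap (exact permutation P = 0.2). Both ratios were chosen after seeing the data. None of the 5 choroid plexus markers passed in edgeR, DESeq2 or limma-voom, and 0 of them had an unadjusted P under 0.05 in any of the 3. With sham mouse 2 left out, 2 of the 5 had an unadjusted P under 0.05 in edgeR, and none passed after adjustment.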
